A study of Rattus norvegicus with 39 samples.

Results

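The microRNA miR-221-3p (rno-miR-221-3p) was followed in the sperm of male rats across 4 dose groups of EGME (ethylene glycol monomethyl ether), an industrial solvent that is toxic to the testis. It is 1 of 405 mature microRNAs in the deposited count table, and miR-222-3p, its neighbour on chromosome X, was taken as its companion. The row was chosen by its rise with dose in these same libraries, as counts per dose group, so its dose differences are given as a description with no test.

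Adult wild-type male Fischer rats of 11 to 12 weeks received EGME in water by oral gavage for 5 days, and cauda epididymal sperm was collected after 5 weeks without exposure. The control group (EGME0, n = 10) received 0 mg/kg/d, and the treated groups received 50 (EGME50, n = 10), 60 (EGME60, n = 9) or 75 mg/kg/d (EGME75, n = 10). Each library came from 1 male, and small RNA was sequenced from 10 ng of RNA on 13 chips of 3 libraries each. Sperm of the cauda epididymis is collected with its surrounding fluid and can carry other cells of the duct, which limits these samples as a measure of sperm alone.

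A microRNA is a short RNA that guides Argonaute proteins to messenger RNAs, mainly through pairing of its seed, bases 2 to 8. miR-221 and miR-222 are processed from neighbouring hairpins and share a seed. Known targets of the pair include Kit, the stem cell factor receptor, and Cdkn1b, an inhibitor of the cell cycle. In the testis miR-221/222 is known for holding spermatogonia in the undifferentiated state by limiting Kit, and the pair is also abundant in endothelium and smooth muscle.

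The mature sequences show how the member and its companion compare, with the seed in capitals (RefSeq, GRCr8):
miR-221-3p: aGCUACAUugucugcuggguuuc
miR-222-3p: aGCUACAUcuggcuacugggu
Both share their first 8 bases, and 11 of the 21 positions compared from the 5′ end are identical. They are the only 2 mature sequences of the reference table, and the only 2 matched rows of the count table, with this seed. In RefSeq GRCr8 the mature miR-221-3p lies on the plus strand at chrX:6023246-6023268 and miR-222-3p at chrX:6022682-6022702. Both microRNA genes fall within the spans of the long non-coding RNA genes LOC120099382 and LOC120099384, and exon and intron positions were not analysed here.

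The hairpins show both arms of each gene, with the mature arms in capitals:
Mir221: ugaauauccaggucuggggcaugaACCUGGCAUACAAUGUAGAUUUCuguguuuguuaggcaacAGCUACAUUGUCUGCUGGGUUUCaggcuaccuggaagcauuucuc
Mir222: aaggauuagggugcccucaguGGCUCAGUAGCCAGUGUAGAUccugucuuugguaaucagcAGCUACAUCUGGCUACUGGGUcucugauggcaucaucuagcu
The 5′ arm of the first hairpin, miR-221-5p, had 4 counts in all, from 2 EGME60 libraries. The 5′ arm of the second hairpin, miR-222-5p, had no row of that name in the count table. The counts of Mir221 were therefore almost entirely those of its 3′ arm.

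Totals of the miRNA table ran from 139 to 38208 counts per library, with means of 16573 ± 10593 (SD, n = 10) in EGME0 and 3808 ± 3084 (SD, n = 10) in EGME75. The miRNA table held a median of 0.156% of all counts in the 4 deposited tables in EGME0 and 0.0432% in EGME75. In these bulk samples, fewer cells of a type and less RNA per cell cannot be told apart. Replicate 33 of EGME0, with 1098 miRNA counts, and replicates 7, 23 and 24 of EGME75, with 995, 807 and 139, stood apart as the shallowest of their groups. Levels below are counts per 1000000 (CPM) of the miRNA table unless another scale is named.

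miR-221-3p was low in the control libraries and higher in most treated ones. Its counts in EGME0 ran from 0 to 17 with a median of 6.5. As CPM the lowest control was 0, the median 433 and the highest 877. In EGME50 the lowest library had 245 CPM, the median was 1958 and the highest had 5354, from counts of 3 to 87. Of these 10 libraries, 8 exceeded the highest control, and replicates 3 and 27 lay within the control range.

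The higher doses gave higher medians and a wider spread. EGME60 ran from 0 to 15374 CPM with a median of 3377, from counts of 0 to 125. There, 7 of 9 libraries exceeded the highest control, and replicate 38, with 93 counts of 6049, stood far above the next library, at 6907 CPM. EGME75 ran from 0 to 9913 CPM with a median of 5043, from counts of 0 to 72. In that group 9 of 10 libraries exceeded the highest control, so the groups overlapped only through replicate 24, which had no count.

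Group means were 393 ± 224 CPM (SD, n = 10) in EGME0, 2144 ± 1506 (SD, n = 10) in EGME50, 4528 ± 4730 (SD, n = 9) in EGME60 and 5507 ± 2867 (SD, n = 10) in EGME75. Relative to the control mean these are ratios of 5.45, 11.5 and 14. The SD of EGME60 exceeded the steps to the EGME50 and EGME75 means. Libraries of these neighbouring doses overlapped, and the steps were not tested. Among all 405 rows, the group mean of miR-221-3p stood at rank 115 in EGME0, 57 in EGME50, 45 in EGME60 and 44 in EGME75.

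**Figure D1:**
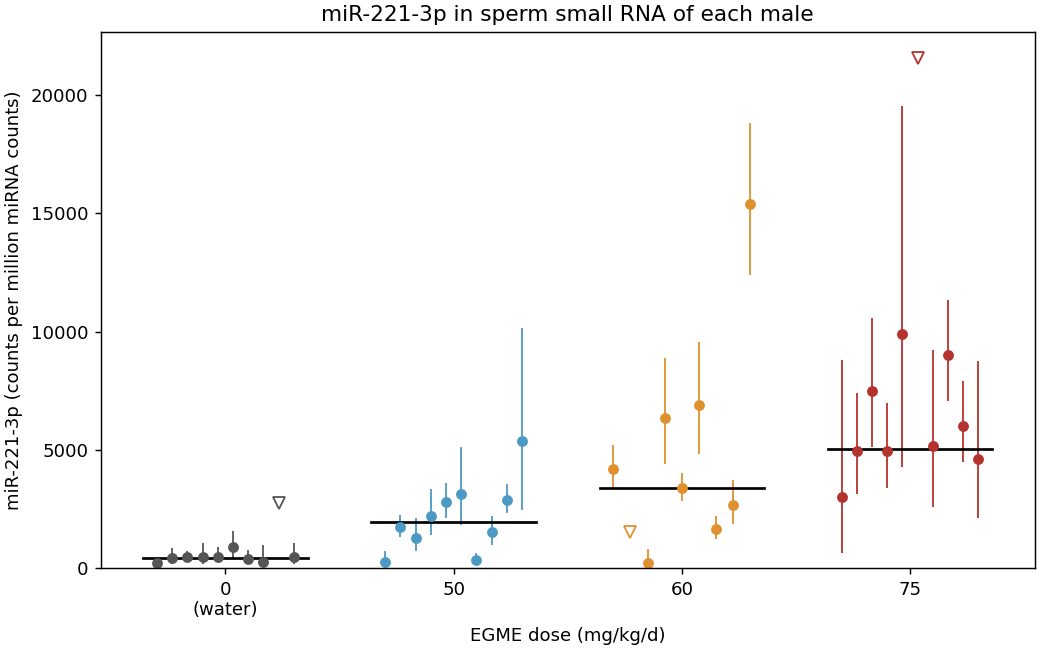
miR-221-3p in each library, in counts per 1000000 (CPM) of the miRNA table, against EGME dose. Points are single males with exact 95% Poisson intervals, open triangles give the limit for a library with no count, and black lines are group medians (433, 1958, 3377 and 5043).

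In 3 libraries miR-221-3p had no count, and their depth sets how low the level could be. In EGME0 replicate 33, 0 of 1098 counts allows a level of up to 2732 CPM, above every measured control. In EGME60 replicate 6, 0 of 1990 counts allows up to 1508 CPM, which is below the EGME60 median. In EGME75 replicate 24, 0 of 139 counts allows up to 21583 CPM, so that library carries almost no information. These limits are 3 counts of the total, and they and the intervals cover counting error only. A listed 0 may stand for a single read in this table, and the limits would then be higher.

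The spread between males stood far above counting error in EGME50 and EGME60, and near it in EGME0 and EGME75. The coefficient of variation was 70.2% in EGME50 against 21.7% from counting alone, and 104% in EGME60 against 16.1%. In EGME0 it was 56.9% against 64.1%, and 42.7% against 38.7% (n = 9) without replicate 33, the shallowest control. In EGME75 it was 52.1% against 48.6%, with 36.7% against 27.7% (n = 9) without replicate 24 and 27.3% against 21.4% (n = 7) without the 3 libraries under 1000 miRNA counts.

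Against the counts of all 4 tables, treated libraries were again above controls, but the level did not rise from dose to dose. The mean per 1000000 of all counts was 0.680 ± 0.427 (SD, n = 10) in EGME0, 3.32 ± 2.92 (SD, n = 10) in EGME50, 3.87 ± 3.22 (SD, n = 9) in EGME60 and 3.08 ± 3.39 (SD, n = 10) in EGME75. The ratios to the control mean on this scale were 4.89, 5.70 and 4.53. Libraries above the highest control, 1.39 on this scale, were 7 of 10, 7 of 9 and 8 of 10. The label of a rise with dose thus describes the share of microRNA counts. On the scale of all counts the treated groups were higher than control without an order by dose.

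**Figure D2:**
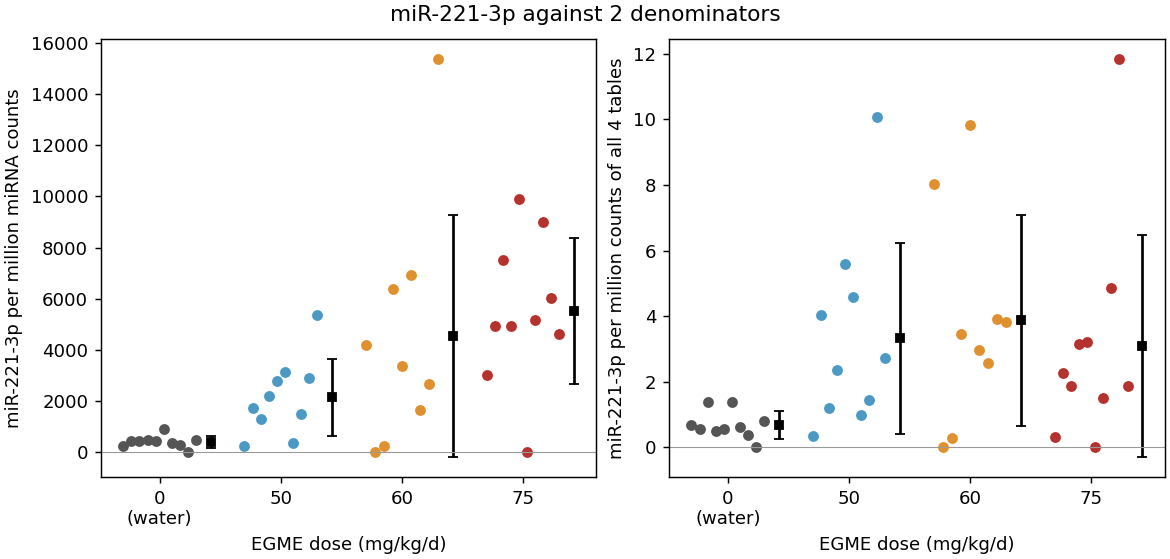
miR-221-3p in each library as counts per 1000000 (CPM) of the miRNA table (left) and per 1000000 counts of all 4 tables (right), against EGME dose. Colored points are libraries and black squares with bars are group means ± SD. On the left the means rise from 393 to 5507, and on the right the treated means lie between 3.08 and 3.87.

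In the edgeR fit with TMM scaling, the log2 difference of miR-221-3p from control was 1.87 (SE 0.49) in EGME50, 2.92 (SE 0.51) in EGME60 and 3.18 (SE 0.51) in EGME75. The median log2 difference of the 105 microRNAs fitted was -0.01, 0.11 and -0.10 in the same comparisons. By size of increase miR-221-3p ranked 3, 3 and 4 of 105. Of the 105, 2.86%, 31.4% and 42.9% passed an adjusted p of 0.05, and nothing is read from this for miR-221-3p itself.

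Between adjacent doses the log2 difference was 1.06 (SE 0.46) from 50 to 60 mg/kg/d and 0.26 (SE 0.47) from 60 to 75. The step from 50 to 60 was 0.62 and that from 60 to 75 was 0.78 without EGME60 replicate 38, the highest library. The step from 60 to 75 was 0.05 without EGME60 replicate 13. Fitted as a line on dose, the log2 difference over 75 mg/kg/d was 3.30 (SE 0.51). With the totals of all 4 tables as library size the log2 differences were 2.18, 2.40 and 2.14. The median of all microRNAs at EGME75 then moved to -1.13, so miR-221-3p lay 3.27 above it, against 3.28 with TMM scaling.

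**Figure D3:**
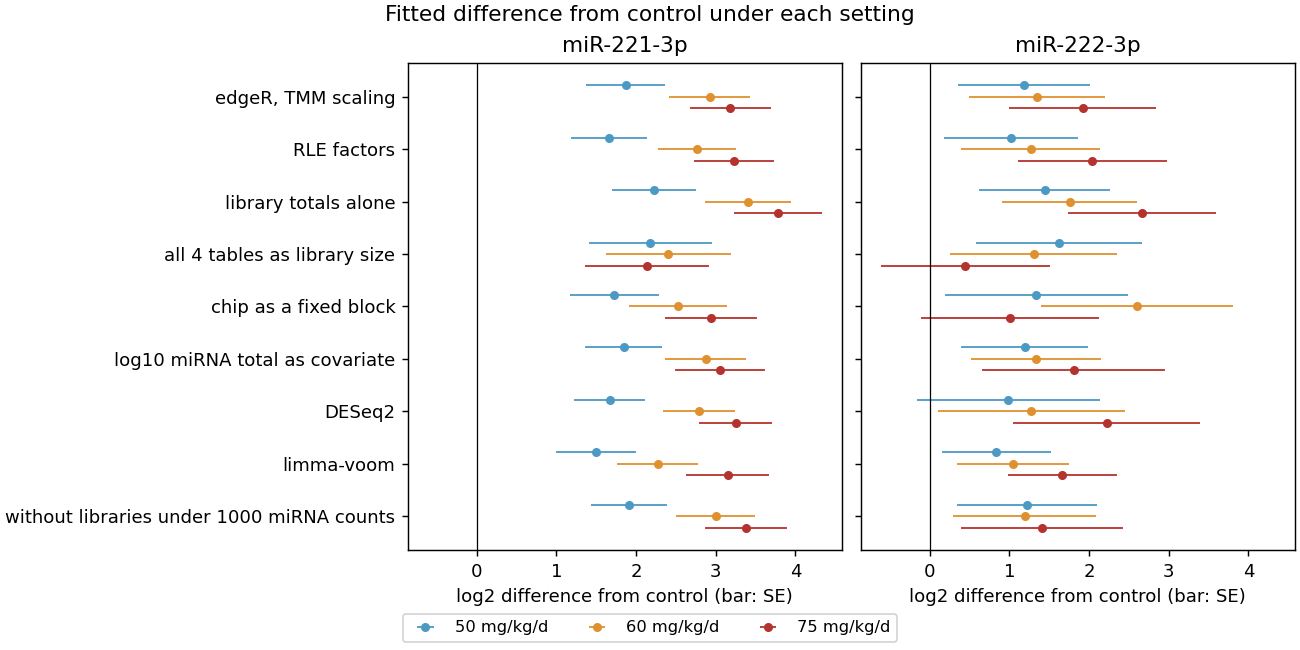
Fitted log2 difference from control (horizontal axis, bars are SE) for miR-221-3p (left) and miR-222-3p (right) under 9 settings, with 1 color per dose. miR-221-3p stays above 1 in each, whereas the miR-222-3p bars of EGME75 reach 0 with all 4 tables as library size and with chip as a block.

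Each chip held 3 libraries, and 10 chips had a control beside treated libraries. Compared within those chips as CPM, miR-221-3p was higher in the treated library in 16 of 20 pairs, lower in 3 and tied in 1. It was higher in 6 of 7 pairs at 50, 5 of 7 at 60 and 5 of 6 at 75 mg/kg/d. The pairs of a chip shared 1 control, so the 20 pairs are not independent. With chip as a fixed block the log2 differences were 1.73, 2.53 and 2.94.

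The companion miR-222-3p was detected far less often. It had 120 counts in all, in 19 of 39 libraries, and did not pass the filter on low counts. Its counts had a median of 0 in EGME0 (0 to 6), 3 in EGME50 (0 to 19), 2 in EGME60 (0 to 19) and 0 in EGME75 (0 to 6). It was at 0 in 6 of 10, 4 of 10, 4 of 9 and 6 of 10 libraries. The groups overlapped throughout.

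Summed over each group, miR-222-3p stood at 84.5 CPM (exact 95% Poisson interval 46.2 to 142) in EGME0, 278 (206 to 368) in EGME50, 335 (243 to 451) in EGME60 and 368 (201 to 617) in EGME75. In the edgeR fit without the filter, its log2 difference from control was 1.18 (SE 0.83, adjusted p = 0.396), 1.34 (SE 0.86, adjusted p = 0.237) and 1.92 (SE 0.92, adjusted p = 0.124). The slope over 75 mg/kg/d was 1.84 (SE 0.92, adjusted p = 0.127). None of the 4 passed, where 2.72%, 15.1%, 16.6% and 22.3% of 404 microRNAs did, although the last 2 had unadjusted p of 0.0372 and 0.0481. The difference at EGME75 did pass with library totals alone (2.66, adjusted p = 0.0250) and with limma-voom (1.67, adjusted p = 0.0361). From 50 to 60 mg/kg/d it was 0.16 (adjusted p = 1) and from 60 to 75 it was 0.58 (adjusted p = 0.845), where 0.248% and 0.99% passed. These values moved with single libraries and with the scaling. The difference at EGME50 was 1.89 without EGME0 replicate 2, and that at EGME60 was 0.88 without EGME60 replicate 5 and 2.60 with chip as a block. At EGME75 it was 1.10 without replicate 31, 1.22 without replicate 7, 1.01 with chip as a block and 0.44 with all 4 tables as library size. In the fit with TMM scaling and no block, 2 SE around the miR-222-3p difference took in that of miR-221-3p at each dose, and the gap between the companions was not tested.

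Within libraries the companions were unequal. Both were detected in 19 libraries, miR-221-3p alone in 17, miR-222-3p alone in 0 and neither in 3. miR-222-3p had the higher count in 1 library and an equal one in 1. Of the counts of both summed over a group, miR-222-3p made up 16.9% (exact 95% binomial interval 9.54 to 26.7) in EGME0 and 13.8% (10.4 to 17.9) in EGME50. It made up 8.57% (6.27 to 11.4) in EGME60 and 5.47% (3.02 to 9.01) in EGME75. The intervals cover counting error only, not the spread between the males pooled, and the difference between groups was not tested. Without replicate 31, which held 6 of the 14 miR-222-3p counts of EGME75, that share was 3.35%. The table held a count of 1 in only 17 of 15795 cells and a count of 2 in 1088, so a listed 0 may stand for a single read, and its part in these shares was not tested.

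To see what moved with miR-221-3p apart from dose, its log2 CPM minus the dose group mean was set against 6 measures over the 39 libraries, with permutation of libraries within groups (100000 draws, two-sided, adjusted over the 6). miR-222-3p gave Pearson r = 0.220 (adjusted p = 0.375) and Spearman rho = 0.037 (adjusted p = 0.827). The miRNA total gave r = 0.391 (p = 0.0224, adjusted p = 0.0671) and rho = 0.066, with r = 0.047 without the 2 libraries farthest from the median total, EGME75 replicate 24 and EGME0 replicate 33. The miRNA share of all counts gave r = -0.024 (adjusted p = 0.895), and the blood cell list r = 0.279 (adjusted p = 0.268).

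The summed epithelial list, made of the miR-200 family that marks epithelia, was the 1 measure that passed, with r = 0.567 (p = 0.00134, adjusted p = 0.00804) and rho = 0.572 (adjusted p = 0.00318). Within EGME0, EGME50, EGME60 and EGME75 r was 0.341, 0.792, 0.631 and 0.390. Without EGME60 replicate 6 and EGME50 replicate 3, the 2 farthest libraries, r was 0.337 (p = 0.0641, adjusted p = 0.19). Whether the relation passed thus depended on these 2 libraries. The tested members of the list differed: as a description, r was 0.764 for miR-200b-3p and 0.574 for miR-200a-3p. It was 0.367 for miR-200c-3p and -0.010 for miR-429, against a median of 0.296 over 104 microRNAs. The germ cell list gave r = -0.055 (adjusted p = 0.895). Within EGME0, EGME50, EGME60 and EGME75 this r was 0.289, -0.5545, -0.703 and 0.785, so the pooled value joins opposite signs. Without the 2 libraries farthest on the germ cell list, EGME75 replicate 24 and EGME50 replicate 36, the pooled r was -0.441 (p = 0.0283, adjusted p = 0.170) and did not pass.

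**Figure D4:**
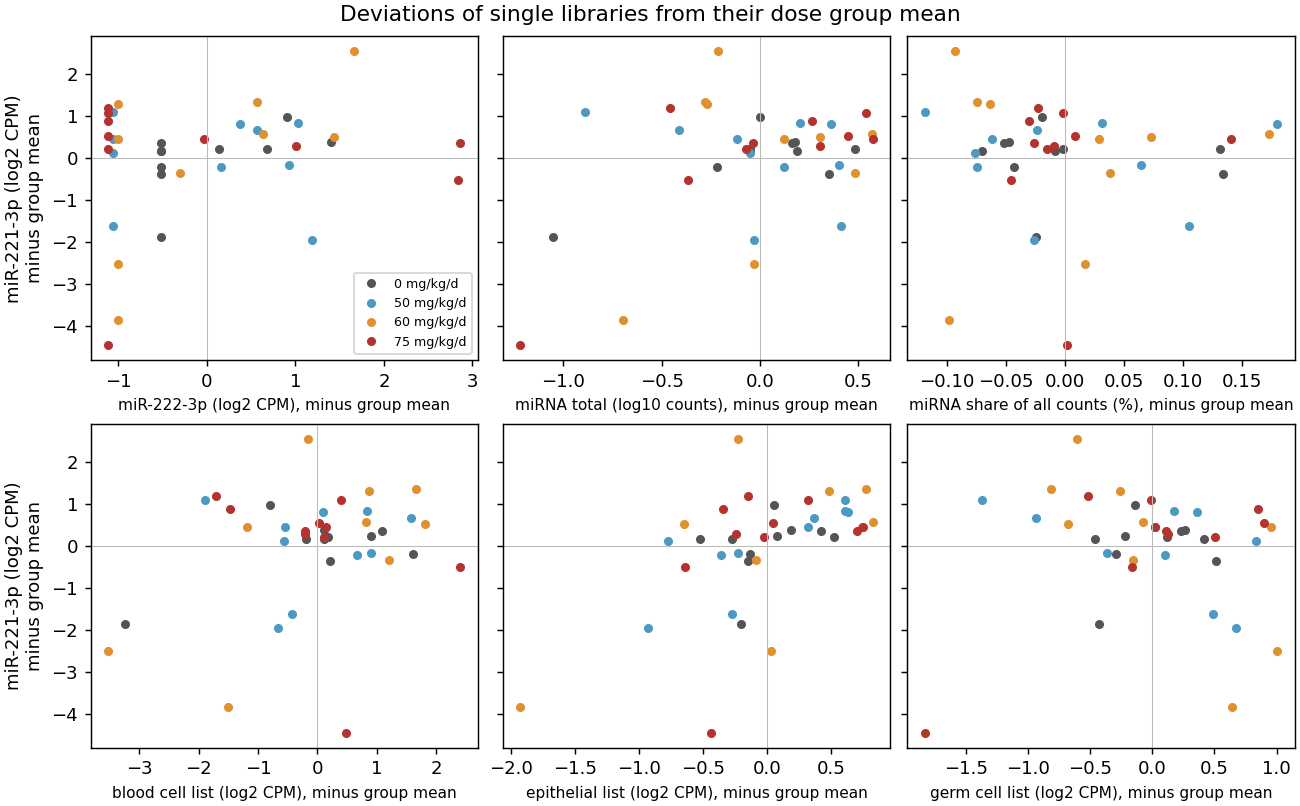
Deviation of miR-221-3p from its dose group mean (vertical, log2 CPM) against the deviation of 6 other measures (horizontal, units on each axis), with 1 point per library, colored by dose. The epithelial panel (r = 0.567) holds the relation that passed the adjusted threshold.

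The microRNAs whose pattern was most like that of miR-221-3p were named by the highest r of the same deviations over 39 libraries, as a description. They were miR-200b-3p (r = 0.764), miR-30a-5p (0.715), miR-22-3p (0.707), miR-29a-3p (0.706) and miR-27b-3p (0.650), against a median of 0.296 over 104 microRNAs. All points share the library, its depth and its scaling factor. RefSeq mature sequences of 4 of them show seeds (capitals) that differ from that of miR-221-3p:
miR-30a-5p: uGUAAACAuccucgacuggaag
miR-22-3p: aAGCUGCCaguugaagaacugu
miR-29a-3p: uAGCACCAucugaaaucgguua
miR-27b-3p: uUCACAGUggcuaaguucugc
At EGME75 the log2 difference was 2.14 (adjusted p = 1.69e-05) for miR-200b-3p, an epithelial microRNA that represses Zeb1 and Zeb2. It was 1.80 (adjusted p = 0.00163) for miR-22-3p and 1.15 (adjusted p = 0.00583) for miR-29a-3p, known for repressing collagens. miR-30a-5p (0.34, adjusted p = 0.441) and miR-27b-3p (0.44, adjusted p = 0.435) did not pass. Of the 5, 3 were higher at EGME75, where 21.9% of the 105 tested were.

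With dose left in, the highest Spearman rho were those of miR-200b-3p (0.804), miR-200a-3p (0.73), miR-27a-3p (0.699), miR-451-5p (0.70) and miR-29a-3p (0.644), against a median of 0.054. This measure uses the dose pattern itself, so the dose differences are given here without a test. Where these microRNAs have an adjusted p or are counted as called in other paragraphs, that is no support for this likeness. At EGME75 the log2 difference was 2.72 for miR-27a-3p, 3.51 for miR-200a-3p and 3.26 for miR-451-5p, a red blood cell microRNA. miR-200b-3p and miR-29a-3p were named by both measures.

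Marker lists of other cell types moved with the dose groups too. Of the 105 microRNAs tested at EGME75, 21.9% were higher and 21% lower. Of 6 germ cell microRNAs (the miR-34 and miR-449 family, abundant in male germ cells), 5 were tested and 4 fell, with a median log2 difference of -1.05 against -0.10 over all tested. The fall was largest in miR-34c-3p (-2.41, adjusted p = 1.93e-06) and miR-34b-3p (-1.76, adjusted p = 2.16e-05). The summed germ cell level ran from 197624 to 330892 CPM in EGME0 and from 64748 to 220530 in EGME75. MicroRNAs of the germ cell list were thus abundant in every group, which is no measure of the purity of the sperm. Without the 3 libraries under 1000 counts 2 of the 5 fell, at a median of -0.61 against 0.15 over all tested. With library totals alone 2 of the 5 fell, at -0.48 against 0.50.

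Of 5 epithelial microRNAs, 4 were tested and 3 rose, with a median log2 difference of 2.33. They were miR-200a-3p, miR-200b-3p and miR-429 (2.53, adjusted p = 2.69e-05), and miR-200c-3p had 0.19 (adjusted p = 0.611). The summed level ran from 6249 to 12877 CPM in EGME0 and from 18090 to 47724 in EGME75. When libraries were scaled to all deposited counts, 1 of the 4 rose, with a median of 1.38 against -1.13 over all tested. miR-141-3p was at 0 in 9 of 10 control libraries.

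Of 8 blood cell names, 6 were in the table, 3 were tested and all 3 rose, with a median of 2.33. These were miR-451-5p, miR-150-5p of lymphocytes (2.33, adjusted p = 0.00167) and miR-223-3p of myeloid cells (1.77, adjusted p = 0.0135). The summed level ran from 0 to 3432 CPM in EGME0 and from 2478 to 48241 in EGME75. miR-144-3p, transcribed with miR-451 in red cells, was at 0 in every library of EGME0, EGME50 and EGME75. miR-142-3p of white cells was at 0 in 9 of 10 EGME0 and 8 of 10 EGME75 libraries. The mean of miR-142-5p, which was not tested, was 227 CPM in EGME0, 79.4 in EGME50, 68.1 in EGME60 and 127 in EGME75, with no count in 3 control and 7 EGME75 libraries. With all 4 tables as library size none of the 3 passed, at a median of 1.25 against -1.13 over all tested. In that setting 3 of all tested were higher and 39 lower. Without the 3 shallow libraries 2 of the blood cell list rose.

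Of 4 muscle microRNAs, 2 were tested and 1 rose, miR-145-5p of smooth muscle (0.94, adjusted p = 0.0140). Its partner miR-143-3p had 0.49 (adjusted p = 0.435). Neither passed with chip as a block (median 0.49 against -0.12 over all tested) or with all 4 tables as library size (-0.36 against -1.13). Of the others, miR-133a-3p had a mean of 1553 CPM in EGME0 and 320 in EGME75, with no count in 8 and 7 libraries. The summed level ran from 9539 to 32667 CPM in EGME0 and from 11152 to 98000 in EGME75, and miR-1-3p of striated muscle was at 0 in every treated library. Neither of the 2 endothelial forms passed the filter. Their summed level ran from 0 to 1649 CPM in EGME0, from 1005 to 8089 in EGME60 and from 0 to 3745 in EGME75. Its medians were 692, 532, 1323 and 727 CPM in EGME0, EGME50, EGME60 and EGME75. The part of these cell types in the miR-221-3p level was not tested.

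**Figure D5:**
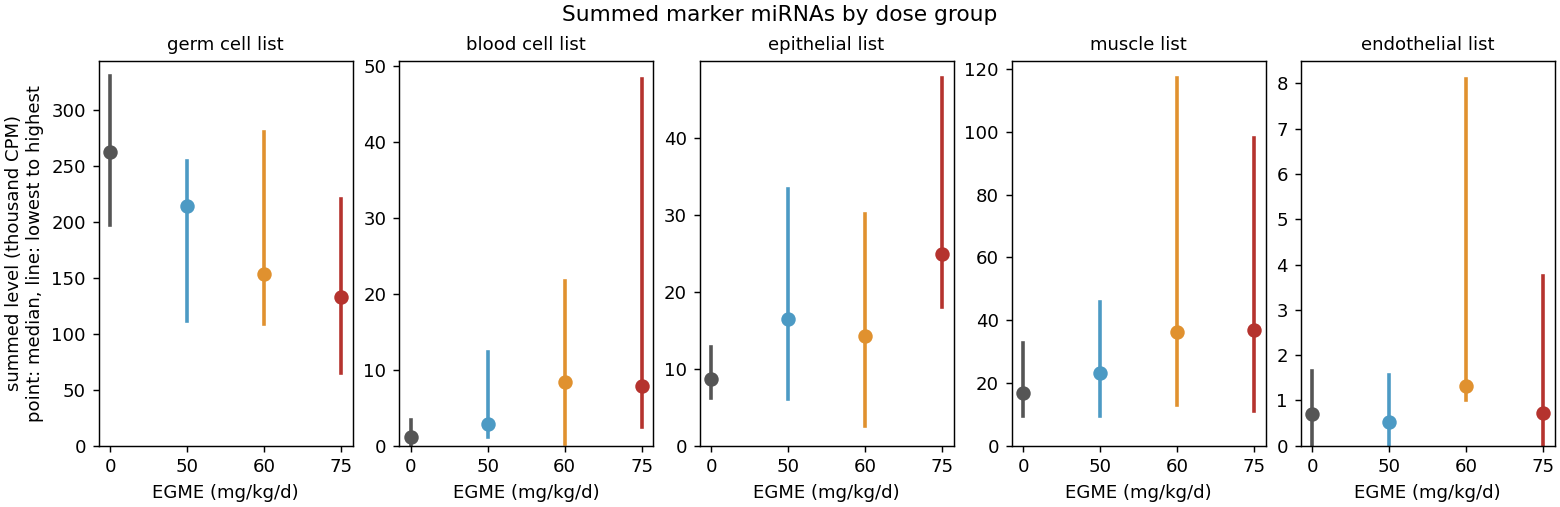
Summed level of 5 marker lists (CPM of the miRNA table, axis in units of 1000) against EGME dose, with the median as a point and a line from the lowest to the highest library. The germ cell median goes from 263173 CPM in EGME0 to 133064 in EGME75, and the epithelial median from 8719 to 24930.

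Of 6 microRNAs known from spermatogonia, the cells in which miR-221/222 acts on Kit, 3 were tested and 1 changed. miR-20a-5p, of the miR-17 family, fell by 1.59 on the log2 scale at EGME75 (adjusted p = 0.000320). miR-21-5p (0.66, adjusted p = 0.201) and miR-146a-5p (0.75, adjusted p = 0.281) did not pass. The median log2 difference of the 3 was 0.66 against -0.10 over all tested. With library totals alone 1 of the 3 was higher and 1 lower, where 33 and 10 of all tested were. The other 3 did not pass the filter. The mean of miR-31a-5p was 148 CPM in EGME0, 245 in EGME50, 378 in EGME60 and 846 in EGME75. That of miR-182 was 39.7, 99.9, 213 and 392, and that of miR-183-5p was 17.6, 195, 252 and 23.2.

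Chromosome X holds the genes of 73 rows of the table, of which 21 were tested. At EGME75, 4 were higher and 4 lower, where 21.9% and 21% of all tested were, and their median was -0.38. miR-221-3p is among the higher ones and was chosen by its rise, so nothing is read from the count of higher ones. Beside miR-221-3p the higher ones were miR-223-3p, miR-672-5p (1.35, adjusted p = 0.0204) and miR-871-3p (2.02, adjusted p = 0.00551). The lower ones were miR-743a-5p (-3.04), miR-743b-5p (-1.31), miR-741-3p (-1.16) and miR-3580-3p (-1.14). With miRNA totals alone as library size 5 were higher and 1 lower, where 33 and 10 of all 105 tested were. Scaling by the summed counts of all tables gave 1 higher and 7 lower, where 3 and 39 of all 105 tested were.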

How the data were processed

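Small RNA counts of 39 libraries were used as deposited by the authors in 4 tables (mature microRNA, tRNA, other non-coding RNA, RNAcentral). Values are whole-number counts, and the submitters' processing notes name FastQC, Bowtie and DESeq2 without role or version. File names of 3 tables name Rnor_6.0, and the build of the mature table is not given in the sources used here. Each library is 1 male. Of the columns, 0 could not be matched to a sample.

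The 4 groups were fitted together with edgeR 4.0.16 in R 4.3.3 (TMM, filterByExpr with a minimum count of 10, robust quasi-likelihood, Benjamini-Hochberg over the whole table), which kept 105 microRNAs. miR-222-3p did not pass this filter, so its tests come from the fit of all 404 microRNAs with a count in any library. Standard errors are the log2 difference over the root of F. Relations within dose used log2 CPM with a prior count of 2. DESeq2 1.42.0 and limma-voom (limma 3.58.1), other scalings, a chip block and omitted libraries were alternatives. The fit was tested on simulated data with more increases than decreases: it recovered the large changes, but also called unchanged microRNAs above the nominal rate, nearly all of them as lower. Sequences came from RefSeq GRCr8, where 372 of 405 rows matched by name.

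Named genes were miR-221-3p, its companion and arms, microRNAs sharing its seed, the 5 most like it by each of 2 correlations, and marker and chromosome X lists. The members and lists were chosen with earlier results of these data known. The list counts under other settings, and the coefficients of variation and miR-222-3p shares without single libraries, were alternatives chosen after seeing the data.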

Additional observations from a re-analysis of the deposited data

Results flagged for a closer look

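Of 24 group checks for a library far from the others, 6 stood out, where chance gives about 1 in 20. EGME0 replicate 33 had the lowest log2 CPM of miR-221-3p (7.39, next 8.89), of the blood cell list (7.39, next 9.85) and the lowest log10 miRNA total (3.04, next 3.88). EGME75 replicate 24 had the lowest miR-221-3p (7.39, next 11.34) and germ cell list (14.89, next 16.20). In both libraries the miR-221-3p value is that of a count of 0 with the prior count added. EGME75 replicate 7 had the highest blood cell list (15.25, next 13.32), with 995 miRNA counts.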

How the results depend on the processing

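The log2 differences of miR-221-3p from control stayed positive under every alternative run. Its step from 60 to 75 mg/kg/d was -0.26 with all 4 tables as library size. The log2 difference of miR-222-3p at 75 mg/kg/d passed with library totals alone (2.66) and limma-voom (1.67), as did its slope with library totals (2.49). Its step from 50 to 60 was -0.32 with all 4 tables and -0.035 without libraries under 1000 counts. Its step from 60 to 75 was -0.86 with all 4 tables and -1.60 with the chip block. Leaving out 1 library each, these steps ran from -0.41 to 0.38 and from -0.21 to 1.01, so they have no settled sign.

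The number of microRNAs passing at 50 mg/kg/d was 3, but 0 with RLE factors, all 4 tables, the chip block or limma-voom, and 11 with library totals or no filter (0 to 3 leaving out 1 library). At 60 it was 33, but 1 with all 4 tables and 61 with no filter. For the slope it was 48, but 22 with all 4 tables and 90 with no filter. From 50 to 60 edgeR passed 0 (14 at an unadjusted p under 0.05), RLE 4, DESeq2 3, the miRNA total as covariate 2, and library totals, no filter and omitting shallow libraries 1 each (0 to 5 leaving out 1 library). From 60 to 75 edgeR passed 0 (8 unadjusted), DESeq2 and limma-voom 0, no filter 4, and all 4 tables as library size gave 2. At 60 mg/kg/d the split of higher against lower calls was 21 to 12 under TMM scaling, 34 to 7 under library totals and 1 to 0 under all 4 tables. Library totals moved the median log2 difference of all microRNAs at 75 to 0.50, and miR-221-3p lay 3.29 above it. There the split was 23 to 22 under TMM scaling, 33 to 10 under library totals and 3 to 39 under all 4 tables.

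Within doses, r with the miRNA total was 0.473 at a prior count of 0.5 and passed. At that prior count r was 0.016 with the miRNA share and 0.0075 with the germ cell list. Without libraries under 1000 counts it passed with the blood cell list (0.495) and the germ cell list (-0.482), and the epithelial r was 0.337 without its 2 farthest libraries. The cause of these changes was not tested. No paired analysis was possible because each replicate number belongs to 1 male of 1 group, so the numbers match no libraries across groups, and libraries were matched by chip instead. Low counts, with a control median of 6.5, limit the precision of every ratio to control.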

Other observations

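The mature microRNA table held a count of 1 in 17 of its 15795 values and a count of 2 in 1088. The other tables did not show this gap: of the tRNA values, 206 were 1 and 167 were 2, of the non-coding RNA values 3216 and 2079, and of the RNAcentral values 181059 and 137334. Low values of miR-221-3p in controls and of miR-222-3p in every group lie in the range this touches.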
